A study of Homo sapiens with 8 samples.

Results

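The genes described here are 10 members of the NF-κB pathway, chosen by name from the 57189 genes in the count files. They are the subunit genes NFKB1, NFKB2 and RELB, the inhibitor genes NFKBIA and NFKBIE, the feedback and survival genes TNFAIP3, BIRC3 and CFLAR, the caspase gene CASP8 and the adhesion gene ICAM1. All 10 passed the filter on low counts, which 13280 genes passed in all. They were measured by poly(A) RNA-seq in CUTLL1 cells (spelled CUTTL1 in the labels) treated with PKF118-310, in CUTLL1 control cells, in TIB153 cells treated with PKF118-310 and in TIB153 control cells. Both are established human T-cell acute lymphoblastic leukemia (T-ALL) lines, not transfected per the labels, and PKF118-310 is a small molecule that blocks the binding of β-catenin to TCF factors. Treated cells were given 1 µM for 24 h, as described for the study, which calls the control cells placebo-treated and does not give the composition of the placebo. Each of the 4 groups held 1 library, read in 2 lanes that were summed, and a ratio within a line therefore carries counting error only.

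NF-κB proteins are dimers of Rel-family subunits that are held in the cytoplasm by IκB proteins and enter the nucleus once an IκB is phosphorylated and degraded. NFKB1, RELA and REL serve the canonical arm, which answers to antigen receptor and TNF receptor signals, whereas NFKB2 and RELB serve the non-canonical arm. Several targets of the pathway shut it off again, among them the IκB genes and TNFAIP3, and others such as BIRC3 and CFLAR restrain caspase 8 below death receptors. In T-ALL, NF-κB activity is known as a survival pathway downstream of NOTCH.

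Library totals ranged from 7609427 to 8140391 counts, and the lanes of each library differed by no more than sampling noise (chi-square per degree of freedom 0.990 to 1.017). At these depths 3 counts equalled 0.369 to 0.394 CPM, which are counts scaled to a common library size. For all gene levels that size was adjusted by the TMM method (scaled CPM). All 8 T-lineage markers were above 5 CPM in at least 1 library, and their summed level was 1610 CPM in treated and 1930 CPM in control CUTLL1 cells, against 2200 CPM in treated and 2210 CPM in control TIB153 cells. For each of the 8, the log2 ratio of treated over control CUTLL1 cells had a 95% counting interval (exact binomial) below 0. Erythroid and myeloid markers summed to at most 3.24 CPM. Of the B-lineage markers, CD79A alone passed 5 CPM, and the list summed to 14.2 and 10.9 CPM in treated and control CUTLL1 cells and to 105 and 79.1 CPM in treated and control TIB153 cells. Stromal, endothelial and epithelial markers summed to 47.1 to 156 CPM, with PECAM1 the sole gene above 5 CPM. The part of these differences in the results on NF-κB genes was not tested.

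κB sites are the short DNA elements that NF-κB dimers bind, and several of the 10 genes carry well-known ones. RefSeq promoter windows on GRCh38.p14, from 250 bases before to 50 bases after an annotated start, were found for 8 of the 10 genes and not for RELB and NFKBIE. The 8 genes had 16 windows, because NFKB1, NFKB2, CFLAR and CASP8 have several starts. The κB consensus, a motif of 10 letters, was searched on both strands, and overlapping matches were counted once. It occurred in 7 of the 16 windows (43.8%), against 3956 of all 35116 windows (11.3%), and in 6 of the 8 genes, against 13.3% of the 27305 genes with a window. Because the genes were chosen by name as NF-κB genes, several with known κB sites, these shares are a description and no test. The 8 genes also had more windows per gene than all genes on average, which gives each more chances of a match. The windows of TNFAIP3 and BIRC3 and a pair of NFKB2 windows held 2 matches each, as did 0.994% of all windows when 2 or more were counted. No match was found in the windows of CASP8 and ICAM1, which says only that these letters are not in them. The matches below, with 10 bases on each side, are shown because they belong to the subunit genes and to genes that were higher in both lines. Capitals mark the match, and positions count from the RefSeq start of the window. That is start 1 of 2 for NFKB1, start 2 of 3 for NFKB2 and start 1 of 4 for CFLAR. The matches at start 3 of NFKB2, at −176 and −21, are not shown. In GENCODE v29 the TNFAIP3 and CFLAR matches and both of the NFKB2 matches shown lie in exons, and the NFKB1 match starts 19 bases before the gene.
TNFAIP3 at −67, chr6:137867182-137867211, plus strand: acgtgactttGGAAAGTCCCgtggaaatcc
TNFAIP3 at −55, chr6:137867194-137867223, plus strand: aaagtcccgtGGAAATCCCCgggcctacaa
NFKB1 at −49, chr4:102501300-102501329, plus strand: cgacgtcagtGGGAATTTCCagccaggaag
NFKB2 at −107, chr10:102394461-102394491, plus strand: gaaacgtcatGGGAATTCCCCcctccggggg
NFKB2 at −78, chr10:102394490-102394519, plus strand: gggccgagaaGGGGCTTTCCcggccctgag
CFLAR at −97, chr2:201118609-201118638, plus strand: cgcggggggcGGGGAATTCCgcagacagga

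For NFKBIA and BIRC3 the matches lie before the first annotated base of the gene in both annotations, and the stretch of the window before the gene is given in full, again with matches in capitals. The NFKBIA match starts 81 bases before the start. The BIRC3 matches start 199 and 135 bases before the RefSeq start. They are shown as the control regions of a feedback inhibitor and a survival gene that NF-κB is known to switch on. A match describes these letters and is not evidence of binding in these cells, which was not measured.
NFKBIA, chr14:35404750-35404999, minus strand: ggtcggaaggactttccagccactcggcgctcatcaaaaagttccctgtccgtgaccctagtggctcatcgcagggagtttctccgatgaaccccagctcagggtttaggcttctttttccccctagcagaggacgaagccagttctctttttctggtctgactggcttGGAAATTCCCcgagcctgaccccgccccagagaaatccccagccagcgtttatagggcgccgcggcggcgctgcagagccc
BIRC3, chr11:102317234-102317449, plus strand: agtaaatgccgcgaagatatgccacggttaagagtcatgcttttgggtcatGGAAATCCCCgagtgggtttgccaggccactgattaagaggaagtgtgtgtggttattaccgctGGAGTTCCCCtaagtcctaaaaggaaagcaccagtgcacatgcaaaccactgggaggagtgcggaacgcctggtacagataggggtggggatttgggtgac

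**Figure D1:**
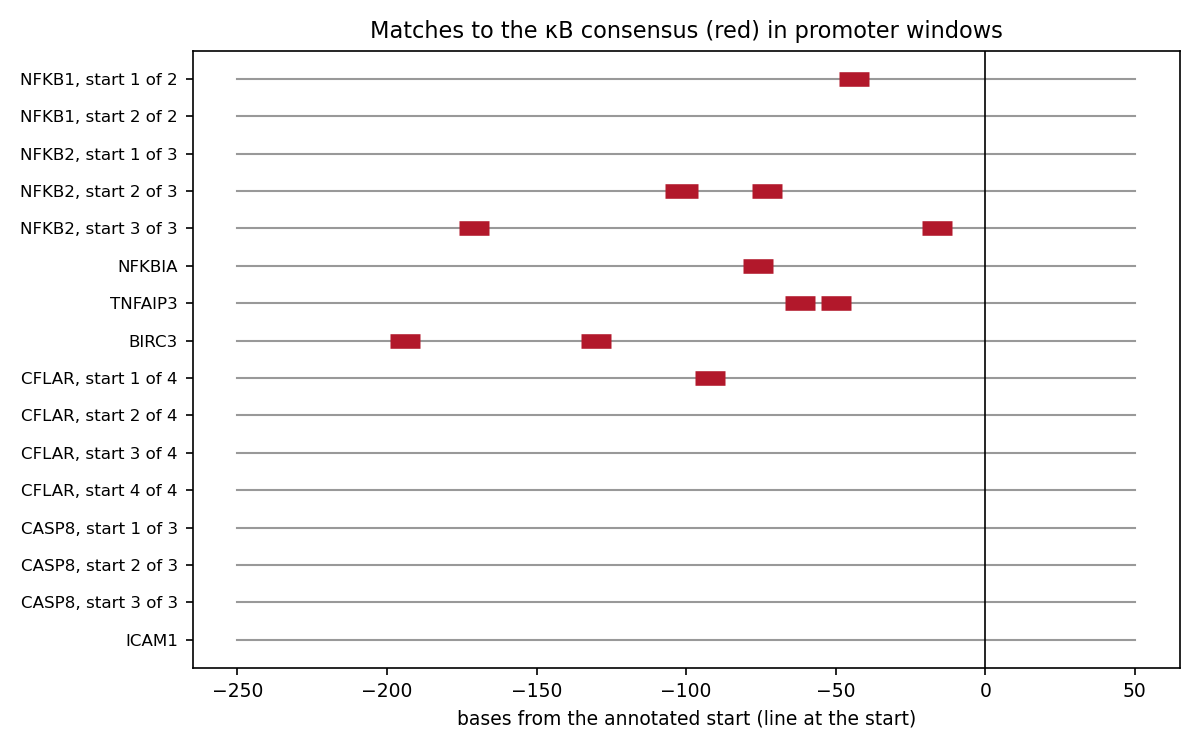
Positions of matches to the κB consensus (red blocks) in the 16 RefSeq promoter windows of 8 genes, with the distance in bases from the annotated start on the horizontal axis and 1 window per row. Of the windows, 7 hold a match, all of them before the start, and the 3 CASP8 windows and the ICAM1 window hold none.

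The first question was how strongly the control cells of each line expressed these genes. On a scale of CPM per kilobase of exon, which allows genes to be compared, NFKBIA, the gene of the main IκB protein IκBα, stood first in CUTLL1 control cells at 18.2 (95% Poisson interval 16.3 to 20.3). TNFAIP3, which encodes the deubiquitinating enzyme A20, followed at 9.86 (8.88 to 10.9). RELB stood last in that library at 0.889 (0.543 to 1.37), and its interval overlapped that of CFLAR at 1.17 (1.02 to 1.35). The order in between was NFKB1, NFKB2, CASP8, NFKBIE, BIRC3 and ICAM1, where each neighbour overlapped the next in its interval. In TIB153 control cells NFKB1 stood first, at 16.4 CPM per kilobase (15.3 to 17.6), ahead of NFKBIA at 12.3 (10.7 to 14.0). CASP8 at 9.68 and TNFAIP3 at 8.82 could not be separated by their intervals, and ICAM1 stood last at 1.37 (0.972 to 1.87), with an interval that overlapped that of RELB at 1.63 (1.15 to 2.23). The level of CFLAR on this scale was divided by the 22.5 kb union of its annotated exons, the longest of the 10.

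**Figure D2:**
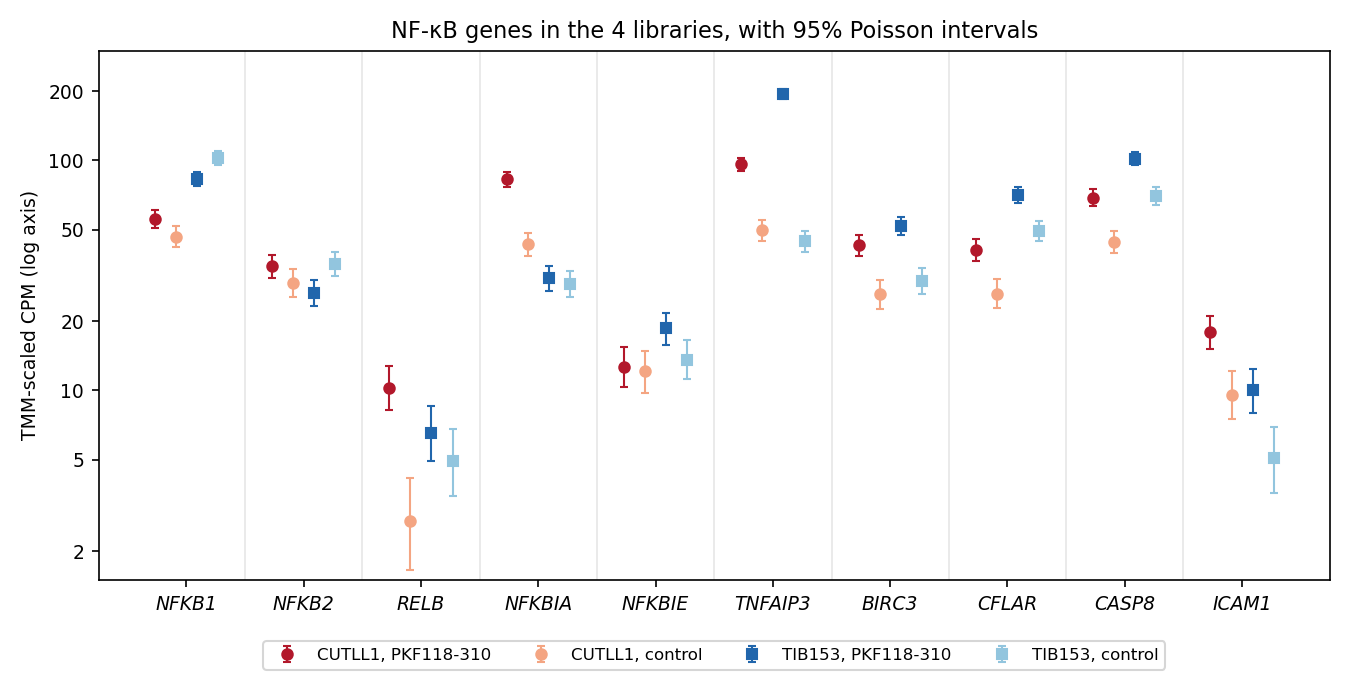
Scaled CPM (log axis) of the 10 NF-κB genes in the 4 libraries, with exact 95% Poisson intervals as bars. TNFAIP3 in treated TIB153 cells is the highest point at 195 CPM, and RELB in CUTLL1 control cells the lowest at 2.70 CPM.

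Between the control libraries, NFKB1, the gene of the p105 precursor of the p50 subunit, differed most. It had 46.7 CPM in CUTLL1 control cells and 103 CPM in TIB153 control cells, a log2 ratio of −1.14 (95% counting interval −1.33 to −0.96), or 2.20-fold lower in CUTLL1. It was the sole gene of the 10 that was at least 2-fold lower with an interval excluding 0, against 9.45% of all genes tested, and none of the 10 was at least 2-fold higher, against 6.12%. CFLAR (log2 ratio −0.91), RELB (−0.85), CASP8 (−0.66) and NFKB2 (−0.27) were also lower in CUTLL1 control cells, which made 5 of the 10 with an interval below 0, against 27.8% of all genes. With either lane left out 3 did, since the intervals of RELB and NFKB2 then included 0. Of all genes, 23.2% did without the first lane and 23.4% without the second. ICAM1 (0.91, interval 0.34 to 1.52) and NFKBIA (0.57, 0.32 to 0.82) were higher in CUTLL1 control cells with intervals above 0, against 27.6% of all genes. The intervals of TNFAIP3 (0.16), NFKBIE (−0.17) and BIRC3 (−0.19) included 0. The median over the 10 genes was −0.23, beside 0.00 over all genes tested. This compares 1 library of each line, and the control libraries used here also enter the comparisons with PKF118-310.

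The comparisons of treated with control cells addressed which genes change when β-catenin is inhibited. In both lines TNFAIP3, BIRC3, CFLAR, CASP8 and ICAM1 were higher in treated cells, by 1.43-fold to 4.36-fold. RELB and NFKBIA were 3.76-fold and 1.92-fold higher in treated CUTLL1 cells, and their intervals included 0 in TIB153. The subunit genes NFKB1 and NFKB2 differed by less than 1.5-fold in either line. Whether a difference comes from β-catenin, from another action of the compound or from the loss of viability in treated cells was not tested. In these bulk samples fewer cells of a type and less RNA per cell cannot be told apart. Among the subunit genes, RELB (chr19:45001430-45038198, plus strand, hg38), whose product pairs with p52, had 83 counts in treated and 20 in control CUTLL1 cells. In TIB153 it had 55 counts in treated and 38 in control cells. On the scaled level these were 10.3 CPM in treated and 2.70 CPM in control CUTLL1 cells, and 6.55 and 4.94 CPM in treated and control TIB153 cells. RELB was thus 3.76-fold higher in treated CUTLL1 cells, a log2 ratio of 1.91 (interval 1.22 to 2.72), while its interval in TIB153 included 0 (0.40, −0.21 to 1.04). The response in CUTLL1 exceeded that in TIB153 by 1.51 on the log2 scale, with a counting interval of 0.59 to 2.42.

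NFKB1 (chr4:102501329-102617302, plus strand) had 55.8 CPM in treated and 46.7 CPM in control CUTLL1 cells, against 83.1 CPM in treated and 103 CPM in control TIB153 cells. It was higher in treated CUTLL1 cells, with a log2 ratio of 0.26 (0.05 to 0.46), and lower in treated TIB153 cells, with −0.31 (−0.46 to −0.16). NFKB1 was the sole gene of the 10 with intervals on opposite sides of 0 in the lines, against 3.40% of all genes tested. Without the first lane its log2 ratio in CUTLL1 was 0.19 with a lower bound of −0.11, so that the interval included 0. NFKB2 (chr10:102394110-102402529, plus strand), the gene of the p100 precursor of p52, had 34.6 CPM in treated and 29.4 CPM in control CUTLL1 cells, and 26.6 CPM in treated and 35.5 CPM in control TIB153 cells. Its log2 ratio was −0.42 in TIB153 (−0.68 to −0.16), and its interval in CUTLL1 included 0 (0.24, −0.03 to 0.50). The differences between the lines were 0.56 for NFKB1 (0.32 to 0.81) and 0.65 for NFKB2 (0.29 to 1.01), both higher in CUTLL1.

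Of the inhibitor genes, NFKBIA (chr14:35401511-35404749, minus strand) had 666 counts in treated and 320 in control CUTLL1 cells, and 258 in treated and 224 in control TIB153 cells. On the scaled level it had 83.0 CPM in treated and 43.2 CPM in control CUTLL1 cells, against 30.7 and 29.1 CPM in treated and control TIB153 cells. It was 1.92-fold higher in treated CUTLL1 cells, with a log2 ratio of 0.94 (0.75 to 1.14), and its interval in TIB153 included 0 (0.08, −0.19 to 0.34). The responses differed by 0.86 (0.54 to 1.19). NFKBIE (chr6:44258166-44265788, minus strand), which encodes IκBε, had 12.7 CPM in treated and 12.1 CPM in control CUTLL1 cells, and 18.6 CPM in treated and 13.6 CPM in control TIB153 cells. Its interval included 0 in CUTLL1 (0.06, −0.36 to 0.49) and lay above 0 in TIB153 (0.44, 0.08 to 0.82). The interval of the difference between the lines (−0.38) ran from −0.92 to 0.16 and included 0.

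TNFAIP3 (chr6:137867188-137883312, plus strand) showed the largest ratio of the 10 genes in TIB153. A20 edits ubiquitin chains on signaling proteins below TNF and antigen receptors and so restrains NF-κB. The gene had 773 counts in treated and 369 in control CUTLL1 cells, against 1634 in treated and 343 in control TIB153 cells. On the scaled level, 96.3 CPM in treated and 49.8 CPM in control CUTLL1 cells stood beside 195 CPM in treated and 44.5 CPM in control TIB153 cells. The control libraries lay close together, and both treated libraries lay above both control libraries. TNFAIP3 was 1.93-fold higher in treated CUTLL1 cells (log2 ratio 0.95, 0.77 to 1.13) and 4.36-fold higher in treated TIB153 cells (2.13, 1.96 to 2.30). In TIB153 this ranked 65 from the highest among the 11397 genes tested that reached 5 CPM in a library. The response in CUTLL1 was lower than in TIB153 by a log2 difference of −1.17 (−1.42 to −0.93). AL357060.1, a gene that shares 1.88% of the exonic bases of TNFAIP3 on the opposite strand, had 145 and 94 counts in treated and control CUTLL1 cells and 272 and 84 counts in treated and control TIB153 cells. It was singled out after its values were seen, and since the sources used here do not say whether reads were counted by strand, reads of the pair cannot be told apart where they overlap.

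BIRC3 (chr11:102317450-102339403, plus strand) encodes the ubiquitin ligase cIAP2, which acts at TNF receptors and limits cell death. It had 42.7 CPM in treated and 26.3 CPM in control CUTLL1 cells, and 51.9 CPM in treated and 30.0 CPM in control TIB153 cells. The log2 ratios were 0.70 (0.44 to 0.96) in CUTLL1 and 0.79 (0.56 to 1.03) in TIB153, 1.62-fold and 1.73-fold. CFLAR (chr2:201116104-201176687, plus strand) encodes c-FLIP, a caspase-8-like protein that blocks caspase 8 at death receptors. It had 40.9 CPM in treated and 26.4 CPM in control CUTLL1 cells, and 71.0 CPM in treated and 49.6 CPM in control TIB153 cells, 1.54-fold and 1.43-fold higher with log2 ratios of 0.63 (0.37 to 0.89) and 0.52 (0.33 to 0.71). Of the exonic bases of CFLAR, 10.1% are shared with genes on the opposite strand and 1.98% with a gene on the same strand. CASP8 itself (chr2:201233443-201287711, plus strand), the initiator caspase of death receptors, moved the same way. It had 69.0 CPM in treated and 44.2 CPM in control CUTLL1 cells, and 102 CPM in treated and 70.1 CPM in control TIB153 cells, with log2 ratios of 0.64 (0.44 to 0.84) and 0.54 (0.39 to 0.70). In each of these genes the treated library lay above the control library of its line in both lines.

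ICAM1 (chr19:10270835-10286615, plus strand), the ligand of the integrin LFA-1 and a widely used NF-κB target, had fewer reads. It had 144 counts in treated and 71 in control CUTLL1 cells, and 84 counts in treated and 39 in control TIB153 cells. The scaled levels were 17.9 and 9.58 CPM in treated and control CUTLL1 cells, and 10.0 and 5.07 CPM in treated and control TIB153 cells. It was 1.87-fold higher in CUTLL1 (log2 ratio 0.90, 0.49 to 1.34) and 1.96-fold higher in TIB153 (0.97, 0.42 to 1.57). Of its exonic bases, 23.6% are shared with genes on the opposite strand. For BIRC3, CFLAR, CASP8 and ICAM1, the responses of the lines differed by −0.09 (−0.43 to 0.25), 0.11 (−0.20 to 0.43), 0.10 (−0.15 to 0.35) and −0.07 (−0.75 to 0.61), all with intervals that included 0. These intervals leave room for differences of up to those bounds.

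**Figure D3:**
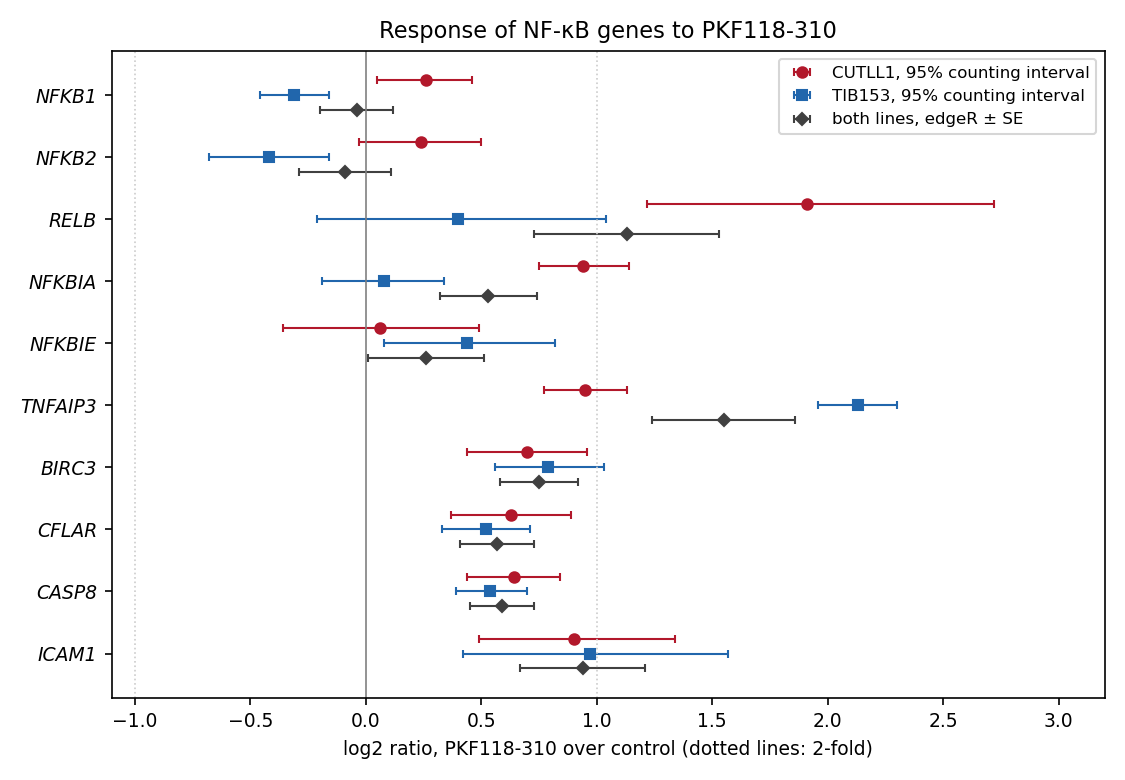
Log2 ratio of PKF118-310 over control for each of the 10 genes in CUTLL1 (red circles) and TIB153 (blue squares) with 95% counting intervals, and across both lines by edgeR ± SE (grey diamonds). The SE is that of the edgeR fit and not the spread between the lines. RELB and NFKBIA lie further right in CUTLL1, TNFAIP3 lies further right in TIB153, and BIRC3, CFLAR, CASP8 and ICAM1 lie at similar values in both lines.

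Counted over the 10 genes, 8 had intervals above 0 in CUTLL1, against 23.3% of all genes tested, and none had an interval below 0, against 23.9%. RELB was the sole one at least 2-fold higher, against 4.80% of all genes tested, and none was at least 2-fold lower, against 2.21%. In TIB153, 6 had intervals above 0, against 25.2% of all genes, and 2 (NFKB1 and NFKB2) below 0, against 28.7%. With a lane left out, NFKB1 in CUTLL1 and NFKB2 in TIB153 (the first lane) and NFKBIE in TIB153 (the second) had intervals that included 0. TNFAIP3 alone was at least 2-fold higher there, against 5.47% of all genes, and none was at least 2-fold lower, against 2.12%. NFKBIA, TNFAIP3 and ICAM1 in CUTLL1, and ICAM1 in TIB153, lay just under 2-fold, so these counts move with the lane or scaling used. Without the first lane NFKBIA (1.01) and TNFAIP3 (1.10) joined RELB in CUTLL1, without the second ICAM1 (1.08) did, and with library totals alone ICAM1 (1.03) joined TNFAIP3 in TIB153. The median log2 ratio was 0.67 in CUTLL1 and 0.48 in TIB153, beside 0.00 and −0.01 over all genes tested. The intervals of 5 of the 10 (TNFAIP3, BIRC3, CFLAR, CASP8 and ICAM1) lay above 0 in both lines, against 13.1% of all genes. For the difference between lines in the response, RELB was at least 2-fold higher and TNFAIP3 at least 2-fold lower in CUTLL1, against 2.49% and 2.83% of all genes, and the median was 0.10 beside 0.03. With 1 library per group these are differences between libraries and not tested differences between conditions.

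Across lines, with each line as a block, edgeR's quasi-likelihood test called 5 of the 10 genes higher and 0 lower, at an adjusted p under 0.05 with Benjamini-Hochberg adjustment over all genes. Of all genes tested, 6.11% were called higher and 6.78% lower, so that 47.4% of calls were higher, against 60.0% with counts scaled by library totals alone. BIRC3 rose by 0.75 ± 0.17 on the log2 scale (SE of the edgeR fit to n = 2 lines; adjusted p = 0.0127 by edgeR). CASP8 rose by 0.59 ± 0.14 (0.0160), CFLAR by 0.57 ± 0.16 (0.0315), ICAM1 by 0.94 ± 0.27 (0.0375) and TNFAIP3 by 1.55 ± 0.31 (0.0464). Of these 5 genes, TNFAIP3 had the largest mean change, the largest adjusted p and the largest difference between lines. RELB (1.13 ± 0.40, adjusted p = 0.0824) and NFKBIA (0.53 ± 0.21, 0.115) did not pass in edgeR, nor did NFKBIE (0.26 ± 0.25, 0.525), NFKB2 (−0.09 ± 0.20, 0.801) and NFKB1 (−0.04 ± 0.16, 0.904). At an unadjusted p under 0.05, edgeR had 7 of the 10 higher and 0 lower, against 13.9% and 14.8% of all genes. The p-values draw on 1 residual and a median of 13 prior degrees of freedom, so the spread behind them is mainly that of other genes. Each SE was worked back from the same test, so it does not measure the spread of a gene between the 2 lines. A DESeq2 Wald test of the same design called TNFAIP3 alone, against 1.51% of all genes called higher, and gave RELB no adjusted p. At an unadjusted p under 0.05, DESeq2 had 4 of the 10 higher and 0 lower, against 6% and 7.42% of all genes. Without the first lane of each library, edgeR called BIRC3, CASP8 and TNFAIP3, against 4.83% of all genes called higher. CFLAR (adjusted p = 0.0784 by edgeR) and ICAM1 (0.104) were then not called.

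The other genes of the pathway were described from 7 lists of 74 genes, of which 64 were tested. Over the 64, the median log2 ratio was 0.18 in CUTLL1 and 0.14 in TIB153, beside 0.00 and −0.01 over all genes tested. Across lines, edgeR called 9 of the 64 higher (14.1%) and 2 lower (3.12%), against 6.11% and 6.78% of all genes tested. The DESeq2 Wald test called only TNFRSF10B (adjusted p = 0.0376) and UBE2N (0.0447) of these 11. It did not call NFKBID (0.106), PRKCQ (0.168), GADD45B (0.0793) and TRAF3 (0.188), and gave MAP3K8, TRAF1, IER3, TNF and PLAU no adjusted p. Of the other subunits and IκB-like genes, NFKBID, which encodes the nuclear IκB protein IκBNS, rose by 1.17 ± 0.25 (adjusted p = 0.0114 by edgeR). It had 16.9 CPM in treated and 7.96 CPM in control CUTLL1 cells, and 19.8 CPM in treated and 8.31 CPM in control TIB153 cells. It was the sole one of the 5 tested genes of its list to pass, against 6.11% of all genes called higher. The canonical subunit gene RELA had log2 ratios of 0.26 in CUTLL1 and 0.35 in TIB153, REL had 0.67 and 0.03, and NFKBIB, the gene of IκBβ, had 0.31 and 0.57, and none of the 3 passed, though edgeR called NFKBIB higher with counts scaled by library totals alone. In REL, 43.3% of exonic bases also belong to a gene of the same strand, so its value is uncertain.

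Upstream of the subunits, few genes passed, beside 6.11% of all genes called higher and 6.78% called lower. Among 11 genes of the IKK complex and the kinases above it, MAP3K8, the kinase TPL2, alone passed, rising by 3.22 ± 0.69 (adjusted p = 0.0108 by edgeR). It had few reads, with 32 counts in treated and 2 in control CUTLL1 cells, and 12 in treated and 2 in control TIB153 cells. It lay under 5 CPM in all libraries and was singled out after its values were seen. With either lane left out it was not among the genes called. The low-count filter was applied again there and left 59 or 61 pathway genes, so MAP3K8 may not have been tested. MAP3K14, the NIK kinase of the non-canonical arm, had log2 ratios of 0.25 in CUTLL1 and 0.71 in TIB153 and did not pass, nor did TAB1 (−0.38 and −0.32) and IKBKE (−0.20 and −0.39). Below antigen receptors, PRKCQ, the gene of the kinase PKCθ, rose by 0.56 ± 0.15 (adjusted p = 0.0245 by edgeR), with 63.0 and 46.4 CPM in treated and control CUTLL1 cells and 90.6 and 57.1 CPM in treated and control TIB153 cells. UBE2N, the Ubc13 enzyme that builds signaling ubiquitin chains, fell by 0.58 on the log2 scale (SE 0.12, adjusted p = 0.00930 by edgeR). It had 110 and 168 CPM in treated and control CUTLL1 cells and 118 and 174 CPM in treated and control TIB153 cells, and 39.5% of its exonic bases overlap a gene of the opposite strand. SHARPIN (0.25 in CUTLL1 and 0.43 in TIB153) and RNF31 (0.17 and 0.27), which encode parts of the linear ubiquitin ligase, did not pass. In RNF31, 34.8% of exonic bases also belong to a gene of the same strand, so its value is uncertain.

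Of 10 receptor adaptors and ubiquitin ligases, 1 rose and 1 fell, against 6.11% and 6.78% of all genes tested. TRAF1, an adaptor that binds cIAP proteins, had 2.62 CPM in treated and 0.54 CPM in control CUTLL1 cells, and 9.53 CPM in treated and 4.42 CPM in control TIB153 cells, and rose by 1.42 ± 0.42 (adjusted p = 0.0402 by edgeR), but was not called with either lane left out. TRAF3, which keeps NIK low and so restrains the non-canonical arm, had 94.9 and 113 CPM in treated and control CUTLL1 cells and 96.9 and 158 CPM in treated and control TIB153 cells. It fell by 0.48 on the log2 scale (SE 0.14, adjusted p = 0.0376 by edgeR), and with counts scaled by library totals alone or without the first lane it was not called. TRADD (−0.71 in CUTLL1 and −0.41 in TIB153), TRAF5 (−0.30 and −0.59) and TRAF3IP2 (0.14 and 0.86) did not pass. None of 7 other feedback inhibitors passed edgeR's test in either direction, and the DESeq2 test also called none. At an unadjusted p under 0.05, edgeR had 1 higher and 2 lower, against 13.9% and 14.8% of all genes. With counts scaled by library totals alone, and also without the second lane, edgeR called TNIP1 higher. In this list, TNIP1, a partner of A20, had log2 ratios of 0.46 in CUTLL1 and 0.37 in TIB153, COMMD1 −0.70 and −0.77, and TNFAIP8 −0.15 and −0.49. In COMMD1, 31.0% of exonic bases also belong to a gene of the same strand and 13.9% to the opposite strand, so its value is uncertain.

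In the death receptor list of 9 tested genes, TNFRSF10B, which encodes the TRAIL receptor DR5, rose by 0.77 ± 0.15 (adjusted p = 0.00643 by edgeR). It had 78.6 CPM in treated and 44.8 CPM in control CUTLL1 cells, and 63.7 CPM in treated and 38.3 CPM in control TIB153 cells. It was the sole gene of the list to pass, against 6.11% of all genes called higher, and the DESeq2 test also called it. CASP10, a caspase gene related to CASP8, had log2 ratios of 0.88 in CUTLL1 and −0.01 in TIB153, and the TNF receptor gene TNFRSF1A had 0.30 and 0.52.

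Of 13 tested genes among 20 other NF-κB targets, 4 rose across lines and none fell, against 6.11% and 6.78% of all genes tested. GADD45B, a stress-induced gene, had 27.8 and 8.09 CPM in treated and control CUTLL1 cells and 16.8 and 10.4 CPM in treated and control TIB153 cells, and rose by 1.23 ± 0.29 (adjusted p = 0.0177 by edgeR). IER3, an early response gene, rose by 1.08 ± 0.32 (0.0395), and PLAU, the gene of urokinase, by 2.19 ± 0.46 (0.00963), with 23 and 2 counts in treated and control CUTLL1 cells and 82 and 21 counts in treated and control TIB153 cells. Without the first lane IER3 and PLAU were not called, and 26.5% of the exonic bases of IER3 and 31.1% of those of PLAU are shared with the opposite strand. IER3 had 12.1 and 4.32 CPM in treated and control CUTLL1 cells and 9.76 and 5.97 CPM in treated and control TIB153 cells. TNF, the cytokine that both activates the pathway and is its target, rose by 1.76 ± 0.50 (0.0352), but had 90 and 25 counts in treated and control CUTLL1 cells against 1 and 0 counts in treated and control TIB153 cells, so its call rests on CUTLL1, the fitted value is no bound for TIB153, and it was not called with either lane left out. LTA (1.20 in CUTLL1 and 1.64 in TIB153), CD69 (−0.07 and 1.25) and SOD2, the mitochondrial superoxide dismutase gene (0.05 and −0.60), did not pass. The LTA ratio in TIB153 rested on 8 and 2 counts in treated and control cells, and its interval included 0 (−0.45 to 5.15). No single GENCODE v29 gene was assigned to SOD2, so its shared exonic bases are not known. BCL2A1, CCL3, CCL4 and VCAM1 had 0 counts in every library.

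**Figure D4:**
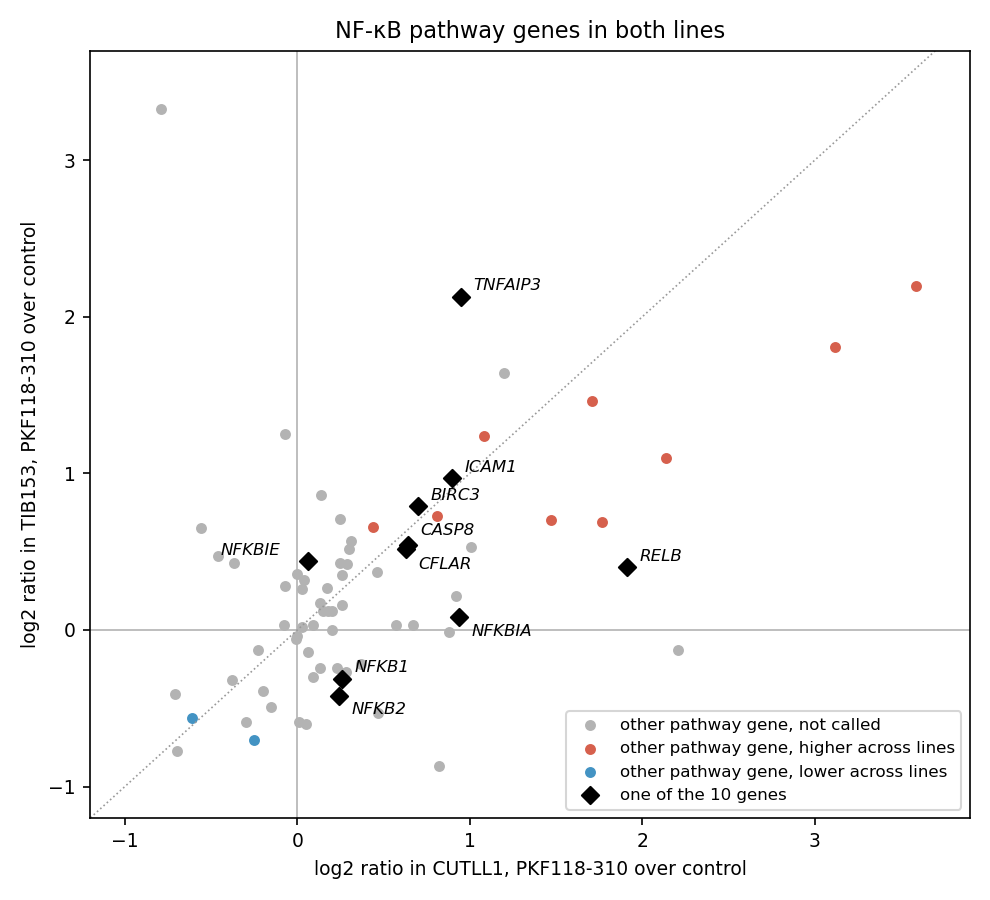
Log2 ratio of PKF118-310 over control in TIB153 (vertical axis) against CUTLL1 (horizontal axis) for the 10 genes (black diamonds) and the 64 other pathway genes tested (dots, red where edgeR called them higher across lines and blue where lower). The dotted line marks equal ratios: BIRC3, CFLAR, CASP8 and ICAM1 lie near it, TNFAIP3 above it, and RELB and NFKBIA below it.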

How the data were processed

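Polyadenylated RNA of 4 libraries was sequenced in 2 lanes each. The labels describe Trizol extraction, column purification and a stranded library kit. The authors deposited 8 lane files of whole-number counts per gene, not normalized, and hg38, HISAT2, HTSeq and DESeq2 are named in the submitters' processing notes without versions or roles. Whether reads were counted by strand is not stated in the sources used here. Of 11796 genes with at least 80 reads, 99.4% had the coordinates of GENCODE v29, which gave gene positions and shared exonic bases. The deposited comparison tables of the authors, which hold fold changes and p-values, were not used.

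Lanes, which are technical, were summed, and each library was counted once. The tools were edgeR 4.0.16 (with limma 3.58.1) and DESeq2 1.42.0 under R 4.3.3. Low counts were removed with filterByExpr and counts were scaled by TMM (factors 0.974 to 1.03). Within a line, log2 ratios of scaled CPM used a pseudocount of 0.5 counts, with exact binomial (Clopper-Pearson) 95% intervals. Genes at 2-fold or more with an interval excluding 0 were called higher or lower. Differences between lines had Wald intervals from the 4 counts. All intervals cover counting error only. Across lines, edgeR's quasi-likelihood test (robust) used cell line as a block, since each line holds 1 treated and 1 control library, with Benjamini-Hochberg adjustment over 13280 genes. This left n = 2 lines and 1 residual degree of freedom. The code was tested on simulated data.

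Named pathway genes were those past the edgeR threshold and in each list up to 3 others, ranked by mean change, that reached 5 CPM in a library. Some genes that this rule names are not reported here. The 10 genes, the lists and this rule were chosen with earlier results of these data known. Alternatives were DESeq2 size factors, library totals alone, a pseudocount of 2 counts, a 1.5-fold minimum, no low-count filter, the DESeq2 Wald test, no block, and each lane left out.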

Additional observations from a re-analysis of the deposited data

Results flagged for a closer look

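NFKB1, the gene of the p105 precursor of p50, went opposite ways in the lines. Its log2 ratio of PKF118-310 over control was 0.26 in CUTLL1 and −0.31 in TIB153, and the counting intervals lay on opposite sides of 0. Without the first lane it was 0.19 in CUTLL1, with a lower bound of −0.11, so that the interval included 0. The difference was not tested, because each group held 1 library.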

How the results depend on the processing

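All single-gene log2 ratios of the 10 genes within a line, between control libraries and between responses stayed within their main intervals under every scaling, pseudocount and left-out lane tried, though NFKBIE in CUTLL1, whose interval included 0, was 0.44 without the first and −0.28 without the second lane. Counts past a fold minimum moved, since several genes lay near it. With a 1.5-fold minimum, 7 genes were higher in CUTLL1 (9.49% of all genes) and 3 in TIB153 (11.4%), and in the control comparison 1 was higher (10.7%) and 4 were lower (15.2%) in CUTLL1. With library totals alone, 2 were higher in TIB153, against 6.32% of all genes. With either lane left out, 2 to 3 were higher in CUTLL1 and 1 in TIB153. Of all genes, 3.78% in CUTLL1 and 4.55% in TIB153 were higher without the first lane, and 3.96% and 4.49% without the second. Across lines, the DESeq2 Wald test called 1 of the 10 genes higher and, of the other pathway genes, 1 higher and 1 lower. Of all genes, it called 1.51% higher and 1.94% lower. Without the replicate block for cell line, edgeR called 0 of the 10 genes and 0 of the pathway genes in either direction, and 0 of all 13280 genes, with 2 of the 10 genes higher and 0 lower and 5 pathway genes higher and 1 lower at an unadjusted p under 0.05, beside 437 and 452 of all genes. With either lane left out, edgeR called 3 to 5 of the 10 genes higher and, of the pathway genes, 5 to 7 higher and 1 to 2 lower. Of all genes, 4.83% were called higher and 4.93% lower without the first lane, and 5.88% and 6.27% without the second. The low-count filter was applied again there and left 59 or 61 pathway genes, so a pathway gene not called may not have been tested. With library totals alone, 11 pathway genes were called higher, NFKBIB and TNIP1 among them, and 1 lower, against 6.23% and 4.16% of all genes. Without the low-count filter, RELB (adjusted p = 0.0266 by edgeR) and NFKBIA (0.0384) also passed, which made 7 of the 10, against 3.77% of all genes called higher. Over all genes, edgeR called 812 higher and 900 lower, the DESeq2 Wald test 200 and 258, no low-count filter 1001 and 1320, and the left-out lanes 580 and 592 or 703 and 750. Higher calls made up 47.4% with TMM and 60.0% with library totals alone, which shifted the median gene by 0.06. Depth limits RELB and ICAM1 most, with 20 and 71 counts in CUTLL1 control cells and 38 and 39 counts in TIB153 control cells.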
